A study of Mus musculus with 9 samples.

Results

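The miR-17 seed family of the mouse comprises miR-17, miR-20a, miR-20b, miR-93, miR-106a and miR-106b, microRNAs (miRNAs) that carry the same seed and lie in 3 genomic clusters. The members were taken by name from the probes of a bead array, with mouse-named probes preferred, and each of the 6 matched 1 of the 582 miRNA probes. All 6 were among the 379 probes tested, that is, above the floor of the deposited values in at least 3 of 8 animals. Whole bone marrow came from female C57Bl6/J mice aged 6 weeks. The 5 control animals were untreated. The other 3 animals had received a single intraperitoneal dose of 5-fluorouracil (5-FU), 150 mg/kg, and their marrow was taken at day 4. 5-FU, an antimetabolite, kills cells in division. Red cells were lysed before total RNA was isolated, so each sample was a mixture of the remaining marrow cells.

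A miRNA guides the silencing complex to messenger RNAs that pair with its seed, the bases near its 5′ end, and lowers the output of those messages. The miR-17 family is known for repressing inhibitors of the cell cycle, among them Cdkn1a (p21), and E2F and Myc factors are known to drive transcription of its clusters. In mouse marrow the cluster from miR-17 to miR-92a is known to be needed for normal B cell development.

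The mature sequences are shown because the members share 1 seed and differ at few other bases, which bears on how separately the probes can read them. They are the RefSeq sequences of assembly GRCm38.p6, written 5′ to 3′, with the seed (bases 2 to 8) in capitals. The first pair lies in the cluster that runs from miR-17 to miR-92a on chromosome 14, the second in the miR-106a-363 cluster on chromosome X, and the last in the miR-106b-25 cluster on chromosome 5.
miR-17: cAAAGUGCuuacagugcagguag
miR-20a: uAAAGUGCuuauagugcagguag
miR-106a: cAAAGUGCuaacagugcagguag
miR-20b: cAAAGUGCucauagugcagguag
miR-106b: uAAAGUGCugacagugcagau
miR-93: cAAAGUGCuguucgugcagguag

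Mature miR-17 lies at chr14:115043684-115043706 and miR-20a at chr14:115044183-115044205, both on the plus strand. On the minus strand of chromosome X, miR-106a lies at chrX:52742541-52742563 and miR-20b at chrX:52742159-52742181. On the minus strand of chromosome 5, miR-106b lies at chr5:138165787-138165807 and miR-93 at chr5:138165574-138165596. That pair falls within the span of Mcm7, which encodes a subunit of the replicative DNA helicase. Positions were counted from 1 at the 5′ end and substitutions are given from miR-17. miR-106a differed from miR-17 by U10A alone, miR-20a by C1U and C12U, and miR-20b by U10C and C12U. miR-106b, of 21 bases, differed by C1U, U10G and G20A over its length, and miR-93 by U10G, A11U, C12U and A13C. Of 1679 mature mouse miRNAs in the RefSeq table, 7 carried this seed, the 6 members and miR-6383, which named no probe. Members differing by 1 base can share signal on hybridisation probes, so the separation of miR-106a from miR-17 and of the other close pairs is uncertain. The probes' own sequences were not used here.

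Of the 9 arrays, 6 formed batch 1, with every untreated animal and the first 5-FU animal. Batch 2 consisted of 3 arrays, 1 for each 5-FU animal, so the first treated animal was measured in both. Both arrays of 5-FU animal 1 were averaged and counted once, because the labels do not treat the batches as biological replicates. No source says whether animals were housed or processed together, so p-values rest on the spread between these animals. In the 5-FU group that spread also holds batch, since animal 1 averages both batches and the others were in batch 2 alone. The difference between groups likewise mixes treatment with batch. Values are log2 fluorescence as normalized by the authors, in which 3 is the floor. Array totals of raw fluorescence ran from 336483 to 679696. The number of arrays limits the precision. Two-sided tests by limma were adjusted by Benjamini-Hochberg over all 379 probes, with a threshold of 0.05.

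Both X-linked members fell after 5-FU in the deposited values, while the members on chromosomes 14 and 5 did not pass the test. Thus 2 of 6 members were called lower and 0 higher by limma, where 25.1% of all tested probes were called lower and 15.6% higher. At an unadjusted limma p under 0.05, in either direction, it was 4 of 6 members and 184 of the 379 probes. Among the 158 probes that averaged above 7 on the log2 scale, as all members did, 44.3% were called lower when fitted alone, with the same count of 2 members. All 6 members' estimated changes were below 0, as were those of 222 of the 379 probes. The members' median change was -0.25 on the log2 scale, against -0.16 over all tested probes and -0.32 over the bright probes. Of the 158 bright probes, 111 had a change below 0. In marrow RNA, fewer cells of a type and less RNA per cell cannot be told apart.

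**Figure D1:**
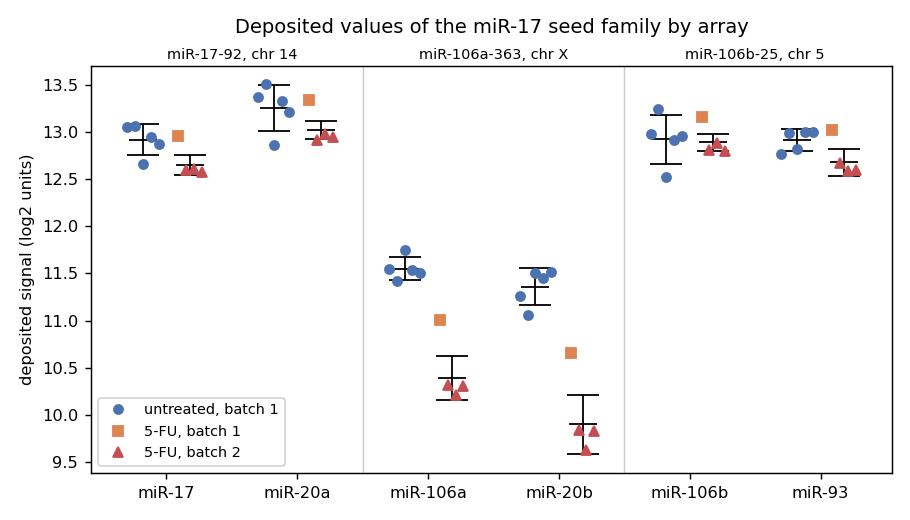
Deposited log2 fluorescence (y axis) of the 6 members (x axis, by cluster), 1 point per array: circles for untreated animals, a square for the 5-FU array of batch 1 and triangles for those of batch 2. Bars are the mean ± SD over animals. The 5-FU arrays of miR-106a (10.21 to 11.00) and miR-20b (9.62 to 10.65) lie below all untreated animals, and those of the other members overlap them.

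miR-17 gives the family its name and opens the cluster from miR-17 to miR-92a, known as a MYC target and as an oncogene in lymphoma. Its deposited log2 values were 13.05, 13.06, 12.66, 12.94 and 12.87 in untreated animals 1 to 5. The 5-FU arrays read 12.95 (animal 1, batch 1), 12.60 (animal 1, batch 2), 12.60 (animal 2) and 12.57 (animal 3). The batch 1 array of the treated animal lay within the untreated range, and the 3 batch 2 arrays lay just below the lowest untreated animal. The means were 12.92 ± 0.16 (SD, n = 5) and 12.65 ± 0.11 (SD, n = 3), and the change of -0.27 (SE 0.10) missed the threshold with a limma adjusted p of 0.0832.

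miR-20a, transcribed with miR-17, read 13.37, 13.50, 12.86, 13.32 and 13.21 in the untreated animals. In the 5-FU animals it read 13.33 and 12.92 (animal 1, batches 1 and 2), 12.98 (animal 2) and 12.95 (animal 3). The groups overlapped, with untreated animal 3 lower than every treated array. The change was -0.24 (SE 0.14; limma adjusted p = 0.240), from 13.25 ± 0.24 (SD, n = 5) to 13.02 ± 0.10 (SD, n = 3).

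miR-106a is the X-linked counterpart of miR-17. Its untreated values were 11.55, 11.42, 11.75, 11.53 and 11.51. The treated arrays read 11.00 and 10.31 (animal 1, batches 1 and 2), 10.21 (animal 2) and 10.31 (animal 3). All treated arrays lay below all untreated animals, and the batch 1 array of animal 1 was the nearest to them. The mean fell by 1.16 on the log2 scale (SE 0.12, 95% interval -1.44 to -0.88; limma adjusted p = 0.000746), to 0.448 of the untreated level, from 11.55 ± 0.12 (SD, n = 5) to 10.39 ± 0.24 (SD, n = 3).

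miR-20b, the X-linked counterpart of miR-20a, read 11.26, 11.06, 11.50, 11.45 and 11.52 in untreated marrow. After 5-FU it read 10.65 and 9.84 (animal 1, batches 1 and 2), 9.62 (animal 2) and 9.82 (animal 3). Here too the groups did not overlap, and the batch 1 array again stood between the untreated animals and the batch 2 arrays. The mean fell by 1.46 on the log2 scale (SE 0.17, 95% interval -1.86 to -1.06; limma adjusted p = 0.00129), to 0.364 of the untreated level, from 11.36 ± 0.20 (SD, n = 5) to 9.90 ± 0.32 (SD, n = 3). With both X-linked members, 2 of 6 members had all treated below all untreated animals, against 25.6% of all tested probes.

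miR-106b is transcribed with its host gene Mcm7, which is itself an E2F target. Its deposited values were 12.98, 13.24, 12.52, 12.91 and 12.95 in untreated animals and 13.16, 12.81, 12.88 and 12.80 on the treated arrays, in the order used above. Every treated array lay inside the untreated range. The change was -0.033 (SE 0.15, 95% interval -0.39 to 0.33; limma adjusted p = 0.854).

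miR-93, from the same host gene, read 12.76, 12.99, 12.81, 13.00 and 13.00 in untreated animals and 13.02, 12.67, 12.58 and 12.60 on the treated arrays. The batch 1 array of the treated animal was the highest of all 9 arrays, and the batch 2 arrays were the lowest 3. The change was -0.24 (SE 0.09; limma adjusted p = 0.0747). In the authors' deposited table, the false discovery rate was 0.0190 for miR-106a and 0.0165 for miR-20b. The authors' deposited table gave 0.127 for miR-17, 0.248 for miR-20a, 0.964 for miR-106b and 0.212 for miR-93, with the arrays of animal 1 counted separately.

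Differences between members within an array do not depend on a scaling factor common to all probes of that array. They do keep any term that differs between probes, such as the batch 2 term described below. All 15 pairs were compared by a two-sided exact permutation test over the 8 animals, with adjustment over the 15 pairs. The test cannot give a p below 0.0357, and with fewer than 11 pairs at that p none can pass after adjustment. The change differed in 11 pairs, each at exact p = 0.0357 and adjusted p = 0.0487. These were all 8 pairs of an X-linked member with a member of another cluster, and 3 more. Compared with the change of miR-17, that of miR-106a was lower by 0.89 and that of miR-20b by 1.19 log2 units. miR-20b and miR-106b stood furthest apart, with a difference between their changes of -1.43. Within the X-linked cluster, miR-20b changed by 0.30 log2 units more than miR-106a. In the other 2 such pairs, the change of miR-17 minus that of miR-106b was -0.23, and the change of miR-20a minus that of miR-106b was -0.20. No difference was detected between miR-17 and miR-20a (-0.031, exact p = 0.643), miR-17 and miR-93 (-0.029, exact p = 0.929), miR-20a and miR-93 (0.0018, exact p = 1) or miR-106b and miR-93 (0.20, exact p = 0.250).

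The gap between the X-linked members and the other members was smaller on the 6 arrays of batch 1. Between the 1 treated array and the 5 untreated arrays there, miR-106a differed by -0.55 and miR-20b by -0.70. Their limma adjusted p-values of 0.115 and 0.184 rest on the spread of the untreated animals alone, with the lone treated array assumed to vary like them. In the same comparison miR-17 differed by 0.036, miR-20a by 0.082, miR-106b by 0.24 and miR-93 by 0.11. The median difference over all tested probes was -0.068. With 1 treated array, the number of members that limma called in that batch says little about the members. Within batch 1 the treated array lay outside the untreated range in 10 of the 15 pairwise differences, with no test for 1 array. Among them were miR-17 against miR-106a (0.58) and against miR-20b (0.74). All 15 share the readings of that array, so the 10 are not separate observations. When batch was fitted as a term over the 9 arrays, the changes were those of batch 1, and 1 of 6 members was called lower, against 7.39% of all probes. That member was miR-106a (limma adjusted p = 0.0289), and miR-20b had an adjusted p of 0.0710. This fit counted both arrays of 5-FU animal 1 separately, and its changes rest on the 1 treated array of batch 1. Its p-values therefore share the limit of the comparison within batch 1. Batch 2 held no untreated animal.

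The RNA of 5-FU animal 1 was read in both batches, which shows how the members moved between them with the animal unchanged. In the deposited values batch 2 minus batch 1 was -0.69 for miR-106a and -0.82 for miR-20b. It was -0.36 for miR-17, -0.42 for miR-20a, -0.35 for miR-106b and -0.36 for miR-93, against a median of -0.16 and an SD of 0.34 over 171 probes that were above 5 on every array. In raw log2 fluorescence the X-linked pair went the other way relative to the rest. Batch 2 minus batch 1 was then 1.30 for miR-106a and 1.28 for miR-20b, against 0.46 for miR-17, 0.27 for miR-106b and a median of 0.97 over the same probes.

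In batch 2 the deposited values carried a probe-specific term that the raw fluorescence with its array scaling did not account for, and for the 6 members it was the same on the 3 arrays to within 0.000088. No source used here states its origin. The term was -0.96 for miR-106a and -1.06 for miR-20b. It was 0.22 for miR-17, 0.36 for miR-20a, 0.42 for miR-106b and 0.17 for miR-93. Over the 171 probes its median was 0 and its SD 0.50, and 4.09% of probes had a lower term than miR-106a and 3.51% a lower one than miR-20b. The X-linked pair thus lay near the low end of this term and the other 4 members above its middle.

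**Figure D2:**
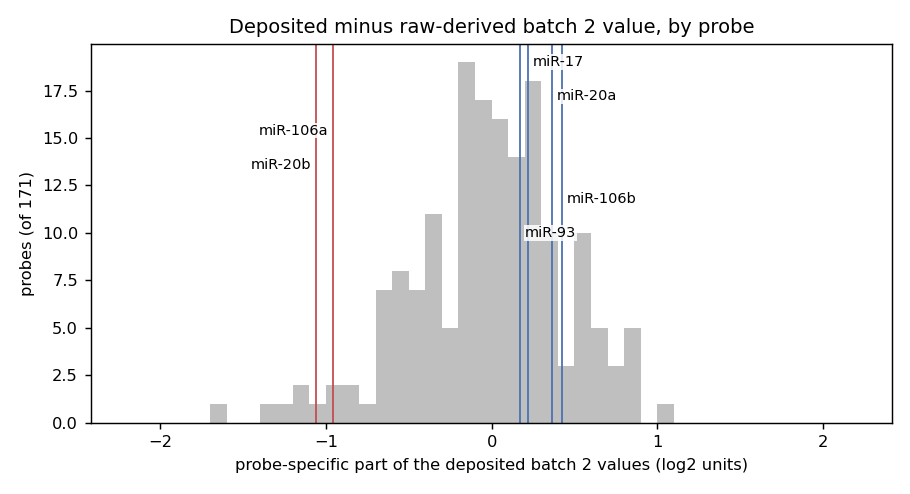
Histogram of the probe-specific term of batch 2 (x axis, log2 units) over 171 probes (y axis, number of probes), with the 6 members marked. miR-106a (-0.96) and miR-20b (-1.06) lie near the low end, and miR-93 (0.17), miR-17 (0.22), miR-20a (0.36) and miR-106b (0.42) lie above the median of 0.

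Raw fluorescence of all members was far above background. The lowest array of a member exceeded the higher water well by 48.4 to 460 times. For miR-106a the raw readings were 3558.5, 3580, 2227, 6035 and 3139 in the untreated columns and 1915 and 4706.5 (animal 1, batches 1 and 2), 3813 and 4754 in the 5-FU columns. For miR-20b they were 3599, 3401.5, 1750.5, 5115 and 2600 against 1523, 3656, 2749 and 3670. For both, the treated array of batch 1 was the lowest of 9, and the batch 2 arrays lay inside the untreated range. The other members ran from 6570 to 13050 on all arrays, and the highest reading of miR-20a was 88.4% and that of miR-93 85.7% of the highest reading in the table (14764). The 5 untreated columns of the deposited table each matched a raw column carrying another untreated animal's number, so raw and deposited values were not paired by untreated animal. The groups are unaffected.

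**Figure D3:**
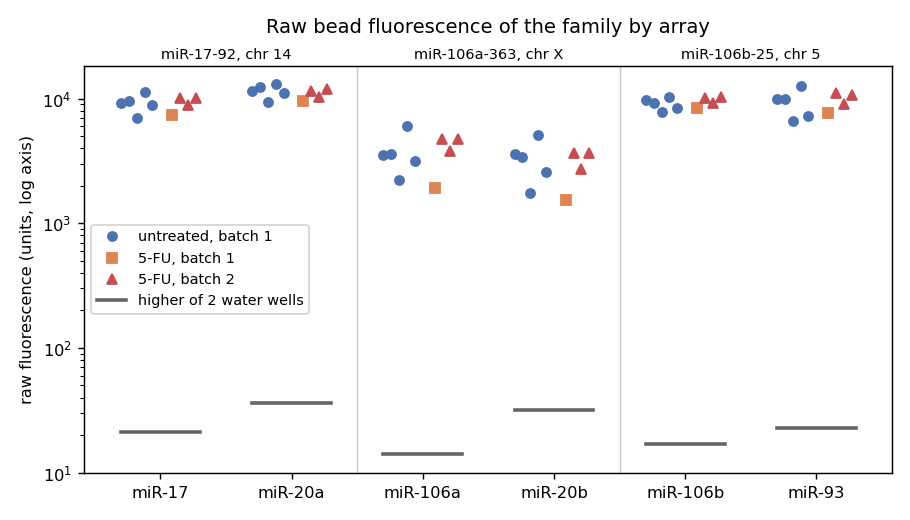
Raw bead fluorescence (y axis, log scale) of the 6 members (x axis, by cluster), 1 point per array with the same symbols, and a grey line at the higher of 2 water wells. The batch 2 arrays of miR-106a and miR-20b lie inside the untreated range, and their batch 1 treated array (1915 and 1523) is the lowest of 9.

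With raw fluorescence scaled to an equal total per array, miR-106a read 11.79, 11.83, 11.70, 12.10 and 11.83 in untreated columns and 11.63, 11.88 and 11.97 in the 5-FU animals on the log2 scale. miR-20b read 11.80, 11.75, 11.34, 11.86 and 11.55 against 11.27, 11.39 and 11.58. The groups overlapped for both members. The change was -0.027 for miR-106a (limma adjusted p = 1) and -0.24 for miR-20b (limma adjusted p = 0.331). On this scale limma called 0 of 6 members, against 7.65% of all probes called lower. At an unadjusted limma p under 0.05 it was 0 of 6 members, against 113 of 379 probes. All treated lay below all untreated animals in 0 of 6 members, against 10.8% of all probes. The changes of the other members were -0.12 for miR-17, -0.21 for miR-20a, -0.05 for miR-106b and -0.05 for miR-93. In 1 of 15 pairs of members the unadjusted exact p was under 0.05, too few for any pair to pass after adjustment.

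With the batch 2 values rebuilt from raw fluorescence without the probe-specific term, an alternative chosen after seeing the data, 4 of 6 members were called lower, against 21.4% of all probes. The changes were then -0.45 for miR-17, -0.54 for miR-20a, -0.36 for miR-106a, -0.58 for miR-20b, -0.39 for miR-106b and -0.38 for miR-93, where the median of all probes was -0.25. limma adjusted p-values were 0.0372 for miR-17, 0.0203 for miR-106a, 0.0207 for miR-20b and 0.0400 for miR-93. The 6 changes then ran from -0.58 to -0.36. Of 15 pairs, 1 had an unadjusted exact p under 0.05, too few for any pair to pass after adjustment. Leaving out untreated animal 3 also gave 4 members called lower in the deposited values, with miR-17 (-0.33, limma adjusted p = 0.0152) and miR-20a (-0.33, limma adjusted p = 0.0208) added, against 26.1% of all probes. Leaving out 5-FU animal 1 added miR-93 (-0.32, limma adjusted p = 0.0274), so that 3 of 6 members were called, against 152 of 379 probes in either direction.

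**Figure D4:**
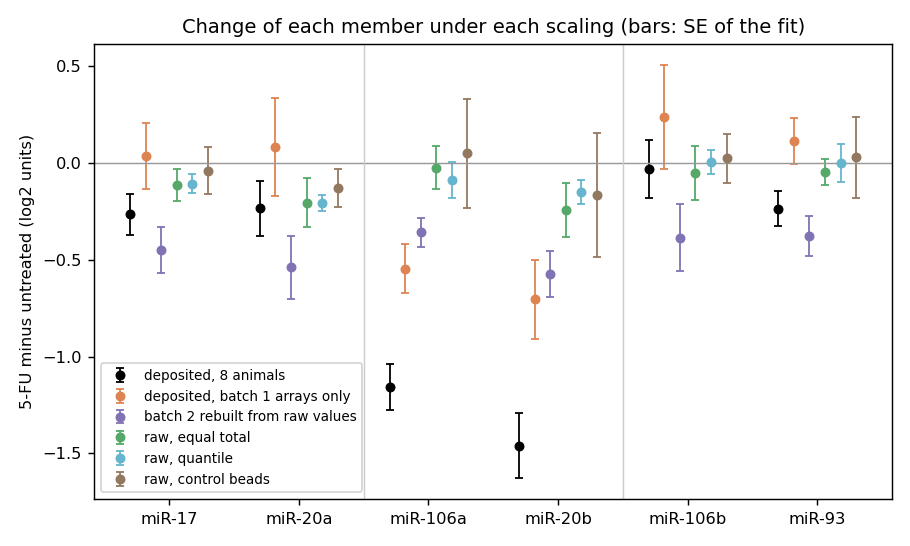
Change of each member, 5-FU minus untreated, in log2 units (y axis) in the deposited values, within batch 1, with batch 2 rebuilt and under 3 scalings of the raw values, with the standard error of the fit as bars. miR-106a ran from -1.16 in the deposited values to 0.049 with raw values scaled to the control beads, where its sign turned, and miR-20b from -1.46 to -0.15 with quantile-normalized raw values.

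The raw difference between miR-17 and the X-linked members also moved with the brightness of the array. Among the 5 untreated columns, miR-17 minus miR-106a was 1.64 on the dimmest array (raw total 336483), then 1.50, 1.41 and 1.36, and 0.91 on the brightest (679696). The difference of miR-17 and miR-20b ran from 2.01 to 1.16 over the same 5 arrays and fell at each step. The batch 1 array of 5-FU animal 1, with a raw total of 382840, gave 1.95 and 2.30, above all untreated arrays. The batch 2 arrays, with totals of 505444 to 590792, gave 1.09 to 1.22 for miR-106a and 1.47 to 1.70 for miR-20b. At nearly equal totals, 5-FU animal 2 (505444) read 1.22 and 1.70, and untreated column 1 (501270) read 1.36 and 1.35. The part of array brightness in the gap between the X-linked members and the other members was not tested.

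**Figure D5:**
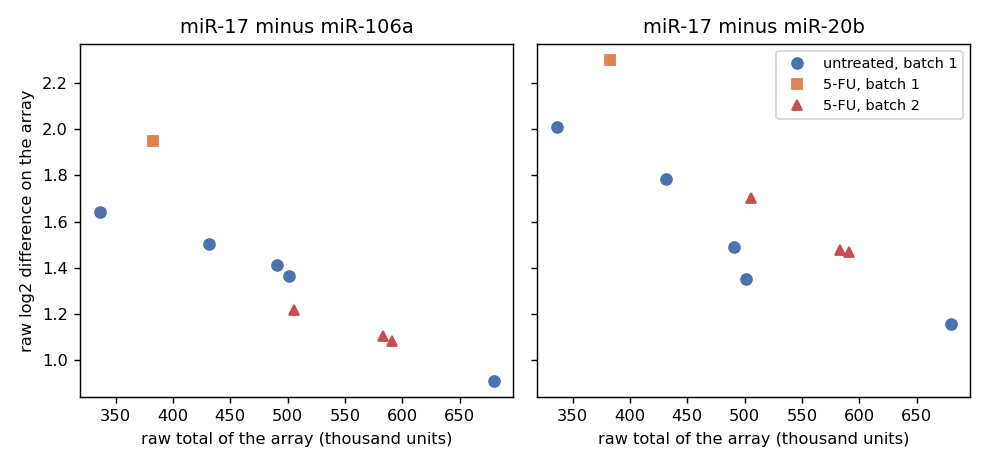
Raw log2 difference of miR-17 minus miR-106a and of miR-17 minus miR-20b (y axes) against the total raw fluorescence of the array (x axis), 1 point per array. In the 5 untreated arrays the differences fall from 1.64 to 0.91 and from 2.01 to 1.16 as the total rises, and the batch 1 treated array has the highest values, 1.95 and 2.30.

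Other probes also name a member, and each is its own measurement. The human-named miR-106a probe averaged 12.69 ± 0.13 (SD, n = 5) without and 12.29 ± 0.12 (SD, n = 3) with 5-FU. It fell by 0.40 on the log2 scale (SE 0.09; limma adjusted p = 0.0124), smaller than the -1.16 of the mouse-named probe. Its term in batch 2 was 0.00031, and it differed by -0.07 within batch 1 and by -0.06 with raw values at an equal total. The 2 probes named for miR-106a therefore differed in the size of the change in the deposited values. The human-named probe lay nearer to miR-17, which averaged 12.92 in untreated animals and changed by -0.27. Which mature mouse miRNA the human-named probe reads was not tested.

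The probe named for the mouse mir-17 hairpin, the precursor from which miR-17 is cut, read 8.25, 8.22, 9.28, 8.16 and 8.28 in untreated animals. The treated arrays read 6.57 and 6.96 (animal 1, batches 1 and 2), 6.75 and 7.07, all below every untreated animal. The level fell by 1.57 on the log2 scale (SE 0.28; limma adjusted p = 0.00561). The fit with batch as a term gave -1.87 (limma adjusted p = 0.0406), a change that rests on the 1 treated array of batch 1. With raw values at an equal total it fell by 1.42 on the log2 scale (SE 0.30; limma adjusted p = 0.0273). Whether this probe reads the precursor or part of a mature strand is stated in no source used here. The human mir-17 hairpin probe changed by -0.97 (limma adjusted p = 0.0119), with raw readings of 31 to 66 against a water well of 20.5, close to background. A probe with a retired name for miR-20* changed by -0.99 and missed the threshold (limma adjusted p = 0.0539).

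The miRNAs cut from the same transcripts as the members include miR-18a, miR-18b, miR-19a, miR-19b, miR-92a, miR-25 and miR-363. Of these 7 partners, 6 were called lower and 0 higher, with a median change of -1.19. Over all tested probes 25.1% were called lower, with a median change of -0.16. When the bright probes were fitted alone, 5 of the 7 partners were called lower, against 44.3% of those probes, whose median change was -0.32. In the fit over all tested probes the exception was miR-25, the partner of miR-106b and miR-93, which changed by -0.049 (limma adjusted p = 0.740). miR-363, encoded only in the X-linked cluster, fell by 2.93 on the log2 scale (SE 0.43; limma adjusted p = 0.00312). Its lowest raw reading, 71 on the batch 1 treated array, was close to the water well of 46, which limits how exactly that fall is known. The human-named miR-18b probe, also of that cluster, fell by 1.38 (SE 0.25; limma adjusted p = 0.00598). From the cluster of miR-17, miR-18a fell by 1.20 (SE 0.16; limma adjusted p = 0.00215) and miR-19a by 0.80 (SE 0.12; limma adjusted p = 0.00356), while miR-17 and miR-20a did not pass. miR-19b and miR-92a are encoded in both clusters, so their falls of 0.29 and 1.19 (limma adjusted p = 0.0235 and 0.000279) cannot be assigned to either. With raw values at an equal total 4 of the 7 were called lower, against 7.65% of all probes, with a median of -0.65. Within batch 1 it was 1 of 7, against 2.11% of all probes.

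The probes whose pattern was most like a member's were sought by the root mean square difference of centred log2 values over the 8 animals, among 123 other probes. For miR-17 they were miR-15b (0.052), miR-19b (0.057) and let-7i (0.090), and for miR-20a miR-15b (0.045), let-7i (0.081) and miR-144 (0.084). miR-17 and miR-20a were close to each other (0.066). The nearest to miR-106a were miR-221 (0.133), miR-92a (0.135) and miR-18a (0.144), and to miR-20b miR-192 (0.143), miR-221 (0.193) and miR-18a (0.203). miR-106b was nearest to its cluster partner miR-25 (0.064), and miR-93 to let-7c (0.088). These distances describe deposited values of the same arrays and share the batch 2 term.

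Markers of the marrow's blood cells were present, with miR-223 of granulocytes and monocytes at 12.72 ± 0.33 and miR-142-3p of blood cells at 12.61 ± 0.35 in untreated animals (SD, n = 5). Neuronal miR-124 sat at the floor in each of the 5 untreated animals and at 3.18 to 3.66 on the treated arrays, just above it, and was called higher (0.40, limma adjusted p = 0.0132), while liver miR-122 averaged 3.45 ± 0.46 (SD, n = 5). Markers of other cells moved with the treatment in the deposited values. The summed linear level of 3 skeletal muscle probes was 4807 to 9663 in untreated and 12797 to 13692 in 5-FU animals, with 3 of 3 called higher. Endothelial probes summed to 1983 to 3007 against 4906 to 5555 (2 of 2 higher), and smooth muscle and stroma probes to 1167 to 2080 against 2768 to 3391 (2 of 3 higher). Lymphocyte probes summed to 6597 to 7995 against 4244 to 4897 (2 of 2 lower), and erythroid probes to 18862 to 23511 against 16040 to 19103 (1 of 3 lower). The part of these cell types in the members' values was not tested.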

How the data were processed

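The authors deposited normalized log2 fluorescence, scaled on the assumption of an equal total miRNA signal per the series design text, and a table of raw bead fluorescence intensity with water wells, per the file headers. The deposited p-values and false discovery rates are the authors' own. Linear totals of the deposited values were nonetheless lower in batch 2 (355655 to 362039) than in batch 1 (401283 to 402143). Upstream software: not given in the sources used here. Control beads (12 rows) were left out. A probe was tested if above the floor of 3 in at least 3 of 8 animals. limma (version 3.58.1, R 4.3.3; lmFit and eBayes, two-sided) compared 5 untreated with 3 5-FU animals, and pairs of members were compared by exact permutation. The fit was tested on simulated data. Members, lists and tests were chosen with earlier results of these data known. Named were all members, every other probe naming one, the cluster partners, related-seed miRNAs and the 3 nearest profiles. Alternatives covered the array of 5-FU animal 1, batch, raw-based scalings, filters, the test, a replicate block and leaving out each animal. Raw fluorescence entered only alternatives, with the higher water well for background.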

Additional observations from a re-analysis of the deposited data

Results flagged for a closer look

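In 1 of 8 untreated groups examined, the highest of the 5 untreated animals stood apart from the others. The probe named for the mouse mir-17 hairpin read 9.28 in untreated animal 3, against 8.16 to 8.28 in the other 4. Chance marks about 1 in 20 such groups. Without that animal the change after 5-FU was -1.36 (SE 0.088; limma adjusted p = 0.00031). The raw column that matches this animal's deposited values had the highest total of all 9 arrays, 679696, and the part of that total in the reading was not tested.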

How the results depend on the processing

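The number of members called, 2 in the deposited values, was 4 with the batch 2 array of 5-FU animal 1, 1 with batch as a term, 0 within batch 1, 0 with raw values at an equal total, 1 after quantile normalization (miR-20a) and 0 when scaled to the control beads. It was 4 with batch 2 rebuilt from raw values and 2 to 4 when each animal was left out. Of all 379 probes, 154 were called in the deposited values, 185 with that batch 2 array, 37 with batch as a term, 12 within batch 1, 56 with raw values at an equal total, 94 after quantile normalization and 3 with control beads. Of 7 cluster partners, 6 were called, against 3 with batch as a term, 1 within batch 1 and 0 when scaled to the control beads, and 5 to 6 without each animal. The 11 pairs that differed became 0 after adjustment with the batch 1 array of 5-FU animal 1. There 10 pairs kept an exact p of 0.0357 (adjusted 0.0536), too few for any to pass, and miR-17 minus miR-106a was 0.83. In 4 other settings 1 pair had an unadjusted exact p under 0.05, again too few for any to pass. These were raw values at an equal total, quantile normalized or scaled to the control beads, and batch 2 rebuilt. Pairs were not tested with batch as a term, without each animal or within batch 1, where fewer animals leave the exact test unable to pass. Signs turned for miR-17 (0.036 with batch as a term and within batch 1, 0.20 when centred on the median), miR-20a (0.082 and 0.23), miR-93 (0.11 and 0.23, and 0.029 with control beads) and miR-106a (0.049 with control beads). The change of miR-106b was 0.024 with the batch 1 array of animal 1, 0.24 under both batch settings, 0.0042 after quantile normalization, 0.022 with control beads, 0.44 when centred, 0.10 with deposited values at an equal total, and -0.13 to 0.046 without each animal. Equal totals also brought miR-17 to -0.13, miR-20a to -0.099 and miR-93 to -0.10. Centring moved the median of all probes to 0.31, from -0.16. The methods' t-test called 2 members after adjustment, against 175 of 379 probes, and 4 members unadjusted, against 195 probes. The replicate block of animal numbers called 2 members and 4 partners, against 52 of 379 probes. Its numbers name different mice in each group and do not pair them. The cause of these differences was not tested. With 1 treated array in batch 1 and no untreated array in batch 2, batch and treatment cannot be told apart for batch 2.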

Other observations

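Embryonic and placental miRNAs whose seed shares a core with the family, among them the miR-290 and miR-302 groups known from mouse stem cells, were low in marrow, and all but miR-519a (6.78 ± 0.30, SD, n = 5) averaged below 5 in untreated animals. Of 16 such probes, 10 were tested, and 5 lay at the floor in all 8 animals. miR-302c was called lower, from 4.01 ± 0.54 (SD, n = 5) by -0.92 (limma adjusted p = 0.0492). No probe of the list was called lower with either single array of 5-FU animal 1, with batch as a term, by the methods' t-test, without the filter or with the 3 scalings of the raw values. Without untreated animal 1 it was 3, against 145 of 379 probes called in either direction, and with batch 2 rebuilt 2, against 94. It was 1 with 9 arrays counted separately, with the trend and robust options of limma, and without untreated animal 3. The human-named miR-519b-3p was called higher by 0.11 (limma adjusted p = 0.0178), but all 5 untreated animals were at the floor, as was the batch 1 treated array, and the 3 batch 2 arrays all read 3.13, so no rise is read from it.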
